A study of Mus musculus with 2 samples.

Results

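The genes described here make, degrade and bind hyaluronan. They were the hyaluronan synthases Has1, Has2 and Has3, the hyaluronidases Hyal1 and Hyal2, the cell-surface receptor Cd44 and the hyaluronan-binding proteoglycan Vcan (versican). They were taken by the gene name printed in the array's annotation, which gave 7 genes with 12 probes among 24323 named genes. Tooth and skin of wild-type mice at postnatal day 0 were each measured on 1 Agilent 1-colour mouse array, and both arrays were on the same slide. No treatment or altered allele was named for either tissue, and the number of animals behind each array is not given. Day 0 is the age in the labels, which were followed here, while the methods of the study put the tissues 1 day later. The study as a whole concerned organs that form from ectoderm.

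Hyaluronan is a long, unsulfated chain of alternating glucuronic acid and N-acetylglucosamine. Has enzymes in the plasma membrane polymerise it from UDP-sugars and push it out of the cell, where it holds water, binds link proteins and large proteoglycans, and is recognised by receptors such as Cd44. It is abundant in the dermis and around epidermal keratinocytes, and versican with hyaluronan fills the loose matrix of the dental papilla and of the dermal papilla of hair.

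Intensities below are the background-corrected spot values of the scanner software, each with the software's own error for that spot. Levels are log2 intensities relative to the 75th percentile of the same array, and differences are skin minus tooth on this log2 scale, so negative values mean higher in tooth. With 1 array per tissue no difference was tested, and the errors describe a spot, not animals. Repeated spots of other probes gave a difference an SD of 0.12. The comparison took in 17409 named genes, those called well above background in tooth, in skin or in both. Across them the differences had a median of -0.04 and quartiles at -0.58 and 0.47. Scaling to 8 spike-in transcripts in place of the 75th percentile moved the median gene by -0.62, so small positive differences depend on the scaling. The tissue labels were borne out by the markers. All 4 ameloblast markers gave signal well above background only in tooth, and all 4 epidermal markers were at least 2-fold higher in skin.

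Of the 7 hyaluronan genes, 6 were well above background on both arrays, and Has1 was on neither. The brightest probe, with the highest mean level over both arrays, stood for each gene. On that basis 0 of these 6 differed by 2-fold or more between the tissues. Of all genes compared, 29.6% did (14.2% higher in skin and 15.5% higher in tooth). The 6 differences ran from -0.85 for Hyal1 to 0.61 for Cd44 with a median of -0.14. Tooth had the higher value for 4 genes and skin for 2, while the median over all genes compared was -0.04. With the spike-ins all 6 values were negative. Staying within 2-fold held for the brightest probes only, since another probe of Vcan was 2.88-fold higher in tooth.

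**Figure D1:**
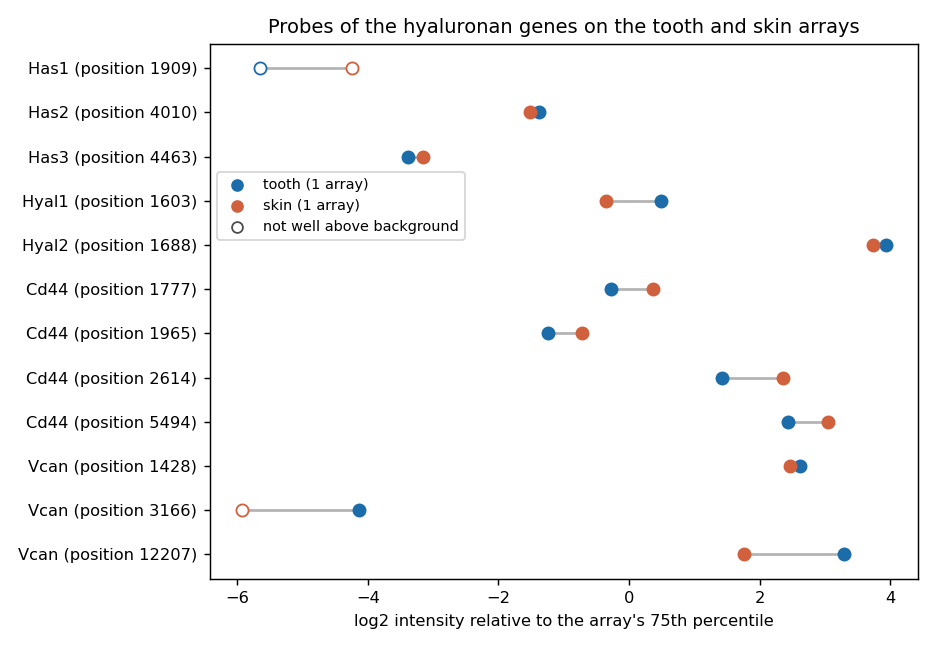
Level of every probe of the 7 hyaluronan genes on the tooth and skin arrays, as log2 intensity relative to the 75th percentile of the same array, with open circles for values not well above background and grey lines joining both arrays. The widest gaps among probes measured on both arrays are those of Vcan at transcript position 12207 (3.29 in tooth, 1.76 in skin) and of Cd44 at position 2614 (1.43 and 2.35).

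The synthases came first in the comparison. Has1, the synthase with the lowest activity in vitro, was read by a probe at chr17:17980413-17980472 on the minus strand (mm9, as are all positions here). Its intensity was 8.48 ± 4.23 in tooth and 14.6 ± 4.76 in skin. The lowest intensity called well above background was 18.7 in tooth and 20.8 in skin, though some brighter spots were not called. Has1 lay below both and was not called, so it had no level in either tissue and no fold is given. A more lenient call of the software, signal significantly above background, was made for it on both arrays.

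Has2 makes most of the hyaluronan of embryonic mesenchyme and of the developing heart, and its loss is lethal in the mouse embryo. Its probe (chr15:56497356-56497415, minus strand) read 164 ± 17.2 in tooth and 96.7 ± 11.1 in skin, or -1.38 and -1.51 on the log2 scale. Once scaled, the arrays differed by -0.13 ± 0.22, less than the error of the spots, and normexp background correction turned the sign (0.08). It passed that error with a median shift (-0.38) and with the spike-ins (-0.75). An antisense transcript, Has2os (named Has2as on the array), is transcribed from the same locus. Its probe lay 28.5 kb from that of Has2, and read 101 in tooth and 65.2 in skin. Once scaled these were nearly equal, at 0.01, and spike-in scaling gave -0.62.

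Has3 makes chains of shorter length than Has2 and is a main synthase of keratinocytes. It was close to background in both tissues, with 41.1 ± 6.49 in tooth and 31.1 ± 6.30 in skin (chr8:109405354-109405413, plus strand). The levels were -3.38 and -3.15. The difference of 0.23 ± 0.37 was smaller than its error and turned negative under spike-in scaling (-0.39), and it was -0.018 under a median shift and -0.0048 under quantile normalization. With the 75th percentile scaling neither measured synthase differed between tooth and skin by more than the error of its spots, whereas with the spike-ins both were lower in skin by more than that error.

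Hyal1 and Hyal2 lie side by side, and their probes were 6.88 kb apart on chromosome 9. Hyal2 is attached to the cell surface and cuts long chains into fragments, which Hyal1 degrades further in lysosomes. Hyal1 read 601 ± 60.3 in tooth and 216 ± 22.2 in skin (chr9:107481893-107481952, plus strand). These were levels of 0.49 and -0.36, a difference of -0.85 ± 0.21, and thus Hyal1 was 1.80-fold higher in tooth. It was the largest difference among the 6 genes by their brightest probes, and 18.1% of all genes compared lay lower. Tooth was higher under every scaling and background correction tried, from -0.66 with normexp to -1.47 with the spike-ins, and the 2-fold line was passed with the spike-ins and with a median shift (-1.09).

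Hyal2 was bright in both tissues, with 6556 ± 656 in tooth and 3662 ± 366 in skin (chr9:107474949-107475008, plus strand). Its levels were 3.94 and 3.73. The difference of -0.21 ± 0.20 was about the size of its error, and was 1.16-fold. Tooth was higher under all settings, with -0.46 after a median shift and -0.83 with the spike-ins. Hyal3, the neighbour of Hyal1 on the other side from Hyal2, was not well above background in either tissue. As the samples are whole tissues, fewer cells of a type and less RNA per cell cannot be told apart for Hyal1 or any other gene here. The 7 markers of leukocytes, which carry much lysosomal enzyme, had summed levels of 33.2 in tooth and 28.4 in skin (linear units of the 75th percentile). Of these, Cd68, a lysosomal protein of macrophages, passed 2-fold toward tooth (-1.79). The part of these cells in the Hyal1 difference was not tested.

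Cd44 is the main hyaluronan receptor of epithelial and mesenchymal cells, and its middle exons are alternatively spliced. The array read it with 4 probes on the minus strand of chromosome 2. The stretches of 3 of them are shown because they mark where in the coding sequence the receptor was read. The probes at transcript positions 1777 and 1965 start 882 and 694 bases upstream of the stop codon and are open in its frame, and the probe at position 2614 holds the end of the coding sequence, with the stop codon in capitals.
Cd44 position 1777: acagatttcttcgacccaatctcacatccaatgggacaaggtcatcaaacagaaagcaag
Cd44 position 1965: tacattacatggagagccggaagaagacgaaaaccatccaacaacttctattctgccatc
Cd44 position 2614: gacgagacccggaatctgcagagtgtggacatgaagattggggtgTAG

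The upstream probe at position 1777 (chr2:102677971-102678030) read 354 ± 35.7 in tooth and 355 ± 35.8 in skin. The next, at position 1965 (chr2:102672645-102672704), read 181 ± 18.9 in tooth and 167 ± 17.6 in skin. Before scaling, these raw intensities were nearly equal in the tissues. Since the 75th percentile of the tooth array was 1.55 times that of the skin array, their differences were 0.64 ± 0.21 and 0.51 ± 0.21.

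The probe over the stop codon (chr2:102654278-102654337) read 1153 ± 115 in tooth and 1412 ± 141 in skin. It differed by 0.92 ± 0.20 and was 1.90-fold higher in skin. The probe at position 5494 (chr2:102651398-102651457), beyond the stop codon and the brightest of the 4, read 2309 ± 231 and 2271 ± 227, and differed by 0.61 ± 0.20. All 4 probes were thus higher in skin, each by more than its error and each below 2-fold. The 4 differences spanned 0.41. Among 101 genes with 4 probes well above background on both arrays, 66.3% had a span at least as wide.

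The direction for Cd44 depended on the scaling. With the spike-ins the 4 differences were 0.01, -0.11, 0.30 and -0.01 in the order above, so that 2 of 4 were above 0, whereas all 4 stayed above 0 with a median shift, quantile normalization or normexp. By the array's annotation the probes were listed for 3 or 4 of the 6 curated RefSeq transcripts of Cd44, and the other transcripts were not named for any of them. Markers of basal epithelium, cells with much Cd44, were higher in skin for 5 of 5 genes after the same scaling, and 1 of 5 passed 2-fold (Krt14, 1.19), with summed levels of 551 in tooth and 1061 in skin. With the spike-ins Trp63 and Cdh1 of this list turned negative. Their part in the Cd44 values was not tested.

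**Figure D2:**
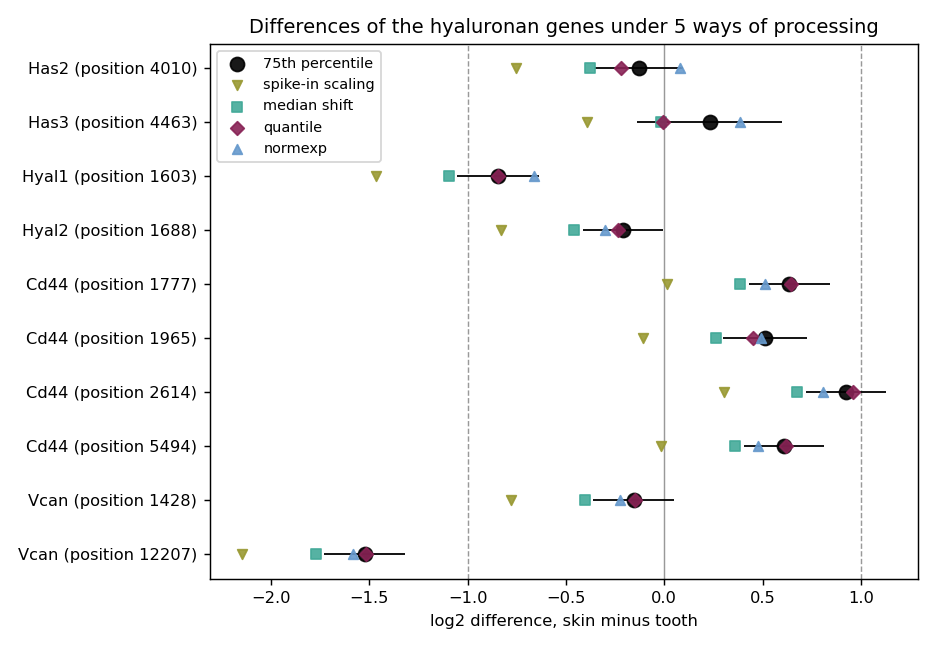
Difference of each probe measured on both arrays (log2, skin minus tooth) under the 75th percentile scaling, with the error of the spots as horizontal bars, and under 4 other scalings or background corrections, with dashed lines at 2-fold. Vcan at position 12207 lies beyond 2-fold toward tooth under all 5, whereas the Cd44 probes lie between -0.11 and 0.30 with the spike-ins and above 0 otherwise.

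Vcan encodes versican, which binds hyaluronan by the folded domain at its amino end, near the start of the message. Its forms differ by large alternatively spliced exons for chondroitin sulfate attachment, and 1 short form ends early. The array held 3 probes on the minus strand of chromosome 13. The probe at position 1428 was annotated to 4 of 5 curated RefSeq transcripts, among them transcript variant 5. The probe at position 12207, 56.7 kb away in the genome, was annotated to the 4 transcripts other than variant 5, and the probe at position 3166 to variant 5 alone. The sequence near the start is shown in lower case throughout. It stands for the gene by mean level, and is the part of the message that the short and the long forms share.
Vcan position 1428: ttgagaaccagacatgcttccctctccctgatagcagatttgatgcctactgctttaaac

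The probe at position 1428 (chr13:89851810-89851869) read 2637 ± 264 in tooth and 1528 ± 153 in skin. Its levels of 2.62 and 2.47 gave a difference of -0.16 ± 0.20, within the error. The difference passed that error with a median shift (-0.40) and with the spike-ins (-0.78), and it stayed below 2-fold under each scaling and background correction.

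The probe at position 12207 (chr13:89795080-89795139) read 4176 ± 418 in tooth and 937 ± 93.8 in skin, at levels of 3.29 and 1.76. The difference was -1.52 ± 0.20, or 2.88-fold higher in tooth, and 9.66% of all genes compared lay lower. It ranged from -2.15 with the spike-ins to -1.51 with quantile normalization, so tooth was more than 2-fold higher under each scaling and background correction.

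The probe for variant 5 alone (chr13:89850072-89850131), 1.68 kb from the first, read 24.4 ± 4.85 in tooth, little above background. In skin it held a surrogate value of 4.54, which the software sets for spots not above background. The bound from this pair of values was under 1, so no fold is given, and with normexp the difference was 0.10.

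Both bright probes of Vcan thus gave different answers for the same tissues. The gap between their differences was 1.37, or 1.36 with normexp. Among 3241 genes with 2 probes well above background on both arrays, the median gap was 0.26 and the 90th percentile 0.94, and 4.57% had a gap at least as wide. Their mean levels over both arrays were close, since position 12207 was brighter in tooth (3.29 against 2.62) and dimmer in skin (1.76 against 2.47). The choice of probe therefore decides whether Vcan counts among the genes that differ. The mean of its 3 probes was -1.16, which includes position 3166 (-1.79) with its surrogate value in skin. With normexp the probe at position 12207 became the brightest (-1.58).

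Position 12207 was higher in tooth, as were 6 of 7 mesenchyme markers and all 4 ameloblast markers. With 1 array per tissue a shared direction does not show that values vary together. Of 7 markers of fibroblasts and mesenchyme, 4 were at least 2-fold higher in tooth and 0 in skin, with summed levels of 1564 in tooth and 363 in skin, and of 5 markers of odontoblasts and bone all were higher in tooth. Col3a1, a collagen of loose mesenchyme, was among those that did not differ by 2-fold (0.13). The part of these cells in the Vcan difference was not tested.

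**Figure D3:**
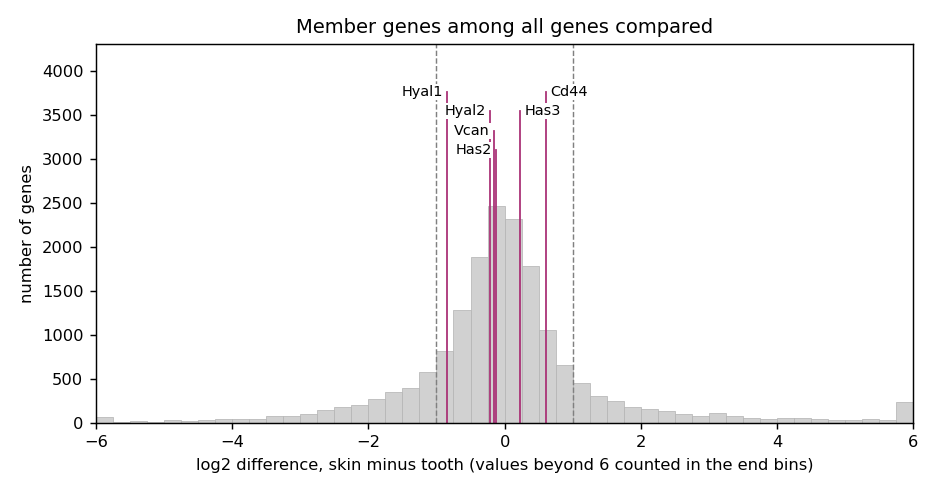
Number of genes (vertical axis) by log2 difference, skin minus tooth, over the 17409 genes compared, in bins of 0.25, with the 6 measured hyaluronan genes as vertical lines at the value of their brightest probe and dashed lines at 2-fold. All 6 lie between the dashed lines, from Hyal1 (-0.85) to Cd44 (0.61).

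The other genes of the pathway were less alike in the tissues. Of 49 genes on the array, 36 entered the comparison, and the median of their differences was -0.55. By the brightest probe 16 of the 36 were at least 2-fold higher in tooth (15.5% of all genes compared were) and 6 in skin (14.2%), while 14 lay within 2-fold. With each dim value at its bound, 4 were at least 2-fold higher in skin. The median was 0.14 when all 49 genes entered without a filter on dim probes, so it rests on leaving out the genes near background.

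Among the 7 enzymes that supply the UDP-sugars, 3 were at least 2-fold higher in tooth and 0 in skin. All 3 belong to the branch that makes UDP-N-acetylglucosamine. Gfpt1, which feeds glucose carbon into this branch, read 2825 in tooth and 546 in skin (-1.74), and another of its probes gave at least 1.53-fold toward tooth. Pgm3, the mutase of the branch, differed by -1.67 and the acetyltransferase Gnpnat1 by -1.13, though other probes gave at least 1.07-fold and -0.49. Uap1, the last enzyme of the branch, differed by -0.47. Ugdh, which makes UDP-glucuronic acid, differed by -0.79, its supplier Ugp2 by 0.27, and Gfpt2, a paralog of Gfpt1, by 0.57. Spike-in scaling, which lowers every value by 0.62, would leave none of the 7 higher in skin.

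Other enzymes of degradation differed more than Hyal1 and Hyal2 did for 3 of the 4 measured. Hexa, a lysosomal hexosaminidase subunit that removes the terminal N-acetylglucosamine, read 4522 in tooth and 485 in skin and was 6.01-fold higher in tooth (-2.59). Gusb, the lysosomal glucuronidase, was higher in tooth by both of its probes (-1.63 and -1.43). Cemip2 (Tmem2 on the array), a cell-surface protein described as a hyaluronidase, differed by -1.41, with 2540 in tooth and 618 in skin. Hyal6 was dim in both (42.0 and 43.4, difference 0.68). Hyal3, Hyal4, Hyal5, Spam1 and Cemip were not well above background in either tissue.

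Receptors other than Cd44 differed by 2-fold in 1 of the 4 measured. Lyve1, the hyaluronan receptor of lymphatic vessels and of some macrophages, read 44.1 in tooth and 132 in skin. It differed by 2.22, or 1.43 with normexp. Of 3 markers of lymphatic endothelium, Prox1 and Flt4 stayed near background in both tissues. Pdpn, the marker that was measured, was higher in tooth (-2.29). The part of lymphatic vessels in the Lyve1 value was not tested. Stab1 (-0.64), Hmmr (-0.33) and Layn (0.34) were within 2-fold, and another probe of Layn was at least 1.67-fold higher in tooth. Stab2, a clearance receptor, was not well above background by the probe that stood for it. Its probe at position 8046 was well above background in tooth (31.7) but not in skin (5.04), and the bound gave no fold.

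Link proteins tie hyaluronan to aggrecan, versican and the related lecticans, and 4 of the 5 measured in this group were at least 2-fold higher in tooth. Hapln1 read 668 in tooth and was not well above background in skin (5.77), which gave at least 20.7-fold. With normexp its difference was smaller, at -2.75. Hapln3 differed by -1.46 and -1.36 by its 2 probes. Acan (aggrecan) read 159 in tooth and 39.8 in skin (-1.36, and -0.50 with normexp). Bcan (brevican) differed by -1.54, and another probe gave at least 2.22-fold toward tooth. Ncan (neurocan) was barely above background in skin only, at least 1.82-fold higher there. Hapln2 and Hapln4 were not well above background in either tissue. Hapln1 and Acan are also cartilage genes. Of the 4 cartilage markers, Col2a1 was measured in tooth but not in skin (at least 43.3-fold, and -3.49 with normexp). Sox9 (0.40) and Col9a1 (0.70) were within 2-fold, though another probe of Col9a1 gave at least 1.42-fold toward tooth. Matn1 was near background in both tissues. The part of cartilage in these values was not tested.

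Tnfaip6 moves the heavy chains of inter-alpha-inhibitor onto hyaluronan, and pentraxin 3 (Ptx3) helps to crosslink the product. Tnfaip6 was higher in tooth by its 3 probes (-1.18, -1.11 and at least 1.42-fold). Ptx3 was dim and differed by -1.25, or -0.28 with normexp. Itih5, a heavy chain made outside the liver, went the other way, with 75.7 in tooth and 1114 in skin. It was 22.8-fold higher in skin (4.51), the widest difference toward skin in the pathway. Ambp, the light chain precursor, was near background and at least 1.86-fold higher in skin, and Itih1, Itih2, Itih3 and Itih4, which are liver genes, were not well above background. All 4 markers of fat and all 4 of muscle were also at least 2-fold higher in skin, with summed levels of 0.66 and 13.1 for fat and 3.49 and 27.0 for muscle in tooth and skin. The part of these tissues in the Itih5 value was not tested.

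The proteases that cleave versican differed in both directions. Adamts15 read 124 in tooth and 707 in skin and was 8.82-fold higher in skin (3.14). Adamts1 read 1134 and 2592 and was 3.54-fold higher in skin (1.82). Adamts9 was higher in tooth (-1.57, with -0.30 by its other probe). Adamts4 (0.14) and Adamts5 (-0.04) were within 2-fold, and Adamts20 was not well above background. The signs of the 3 called proteases were the same under spike-in scaling, while that of Adamts4 turned.

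Among genes whose proteins meet Cd44, the metalloproteinase Mmp9 read 2187 in tooth and was at least 67.8-fold higher there. Spp1 (osteopontin, a ligand) read 1774 in tooth and was at least 55.0-fold higher. With normexp their differences were smaller, at -4.65 and -3.85. Mmp14, which sheds Cd44 from the cell surface, differed by -1.36. Mmp9 and Spp1 are products of bone-resorbing and bone-forming cells, and the 5 markers of odontoblasts and bone had summed levels of 343 in tooth and 0.65 in skin. Their part was not tested. The proteins that link the tail of Cd44 to actin did not differ by 2-fold. Ezr (ezrin) differed by 0.85, Msn (moesin) by 0.27, and Rdx (radixin) by -0.14 with -0.79 by its other probe. With the spike-ins the value of Msn turned negative.

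**Figure D4:**
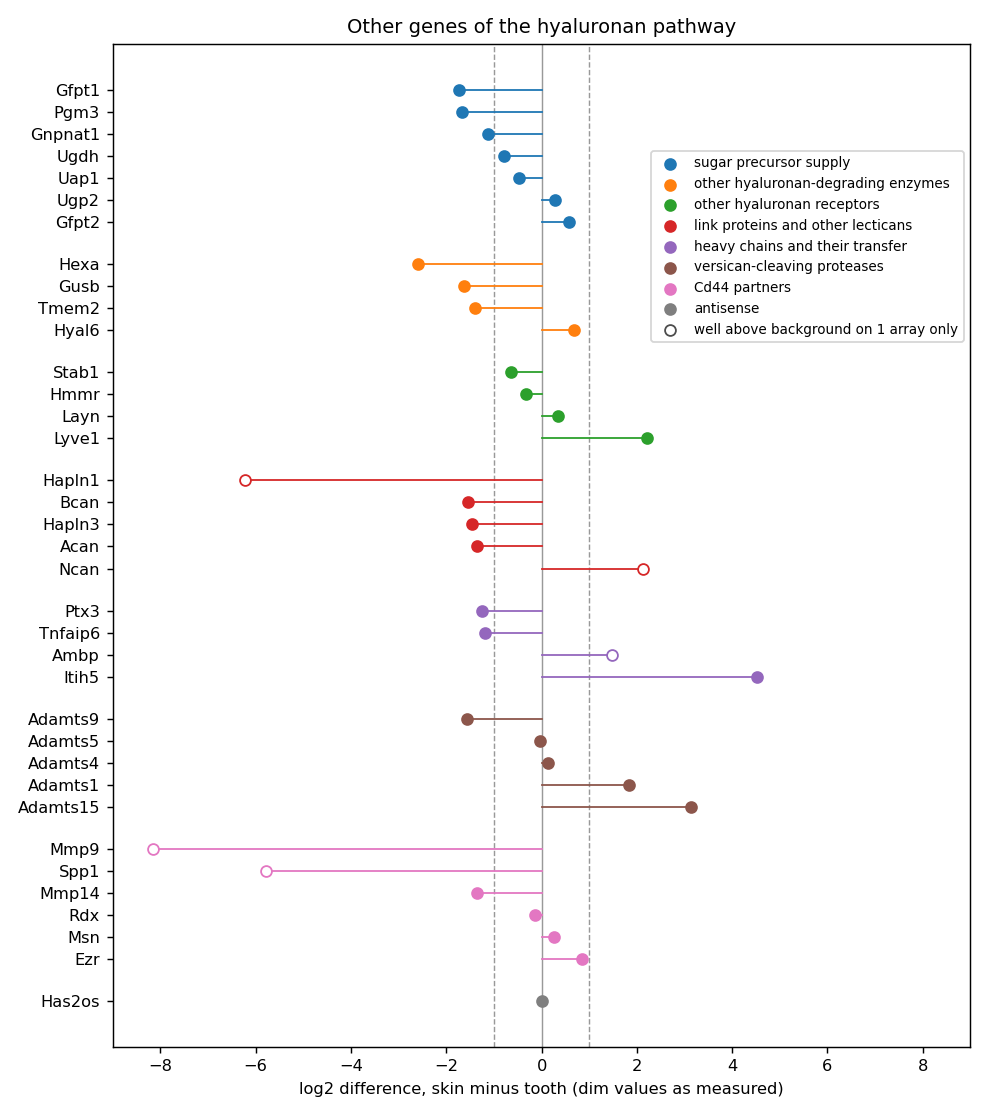
Difference of each other pathway gene well above background on at least 1 array (log2, skin minus tooth, brightest probe, dim values as measured), coloured by role, with dashed lines at 2-fold and open circles for genes well above background on 1 array only, whose values are not folds. Hapln1, Mmp9 and Spp1 lie farthest toward tooth, and Itih5 (4.51) and Adamts15 (3.14) farthest toward skin.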

How the data were processed

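RNA of 1 tooth and 1 skin array (Cy3, 1 colour) was analysed, grouped by the labels. Per the file headers, the deposited spot intensities came from Agilent Feature Extraction (10.7.3.1), which had subtracted background, removed spatial trends and set surrogates for very dim spots. Its yes-or-no calls for outliers and signal above background were used. The authors also deposited a ratio per spot, the processed intensity over 1 factor per array, which served as an alternative. No column was left unmapped.

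Log2 intensities were centred on each array's 75th percentile over non-control probes, with flagged outlier spots left out (no hyaluronan probe was flagged, and each had 1 spot). Skin minus tooth and quantile values were computed in Python 3.11.15 (numpy 2.4.6, pandas 2.3.3), and normexp values (offset 50) in R 4.3.3 with limma 3.58.1. The code was tested on simulated data. The brightest probe, by the mean of its scaled log2 levels over both arrays, stood for a gene. A probe well above background on 1 array only was given a bound, "at least N-fold", against the lowest signal called well above background on the other array or the probe's own value if higher. These bounds hold for the software's background subtraction, and with normexp some differences were smaller than the bound. All 7 genes with every probe, and all pathway genes past 2-fold, were named. A gene of the pathway is not reported here and entered no list count. Members and lists were chosen with earlier results of these data known. Names came from array accessions matched to RefSeq (GRCm38.p6, 27235 of 33184 named probes), for names only. Probe coordinates are mm9, per the file headers, and the exons under other probes were not analysed here. No test was possible with 1 array per tissue, and the number of arrays limits the precision. A search of probes in RefSeq proteins had been planned and was not done; the frame of the Cd44 probes was taken from their stop codon.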

Additional observations from a re-analysis of the deposited data

How the results depend on the processing

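For the 7 hyaluronan genes and the other pathway genes, medians and counts past 2-fold were recomputed under 10 alternatives. Spike-in scaling moved the median of the hyaluronan genes to -0.77 and that of the other pathway genes to -1.18, and a median shift moved them to -0.39 and -0.80. Each put 1 hyaluronan gene, Hyal1, past 2-fold in tooth. Normexp also gave 1 in tooth, Vcan by its probe at position 12207, and a pathway median of -0.37. The mean of all probes gave 1 in tooth, Vcan (-1.16). That mean takes in the probe at position 3166 (-1.79), whose skin value is a surrogate and which has no fold. Without a filter on dim probes 1 gene, Has1, passed 2-fold in skin from values near background, and the pathway median turned to 0.14. In the other 49 of 60 such values nothing moved beyond 1.5 times the count or the spot error. Quantile normalization, the deposited table, the bounds, outlier spots kept and genes measured on both arrays only moved none of them. Why normexp moved its values was not tested.

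Under spike-in scaling 32.4% of all genes compared were at least 2-fold higher in tooth and 9.04% in skin, so counts past 2-fold depend on it. Signal near background limits Has1, Has3 and the Vcan probe at position 3166. No paired analysis was possible because each tissue had 1 array, and for the same reason no replicate could be left out.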
